A study of Mus musculus with 18 samples.

Results

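Lysophosphatidic acid (LPA) and sphingosine 1-phosphate (S1P) are lipid messengers carried in serum that act on cells through receptors of the G protein coupled type. The 8 receptor genes described here were Lpar1, Lpar2, Lpar3, Lpar4, Lpar6, S1pr1, S1pr2 and S1pr3, out of 54347 genes in the count table. They were taken by symbol, with no threshold, and were picked from the measured counts of these same 18 libraries with earlier results in view, so their values are given as a description with no p-value. RNA-seq had been carried out on primary mesenchymal stem cells (MSC), adherent progenitors that can form bone or fat, from the marrow of male C57BL/6J mice whose age the labels do not give. The first experiment had 3 groups. Control MSC had no drug, CK666 cells had an agent that blocks the branching of actin by the Arp2/3 complex, and the remaining cells had CytoD (cytochalasin D, a mould toxin that stops actin filaments from growing). In the second experiment MSC received a control siRNA, labelled as mock (siControl), an siRNA against Arp4 (siArp4), or the Arp4 siRNA together with CK666 (siArp4+CK666). Arp4, the product of Actl6a, is an actin related protein of chromatin remodelling complexes. Each of the 6 groups held 3 libraries. According to the study's methods, cells from several mice were joined into a single line and each library was a separate preparation, so the replicates are cultures and not animals. CK666 on siControl cells was not analysed here.

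The receptors fall into 2 families. Lpar1, Lpar2, Lpar3 and the S1P receptors belong to the EDG family, and Lpar4 and Lpar6 are closer to the purinergic (P2Y) receptors. Most LPA receptors, S1pr2 and S1pr3 can couple to the G proteins that turn on RhoA, and through it the kinases that contract actin and drive serum response genes, while S1pr1 signals mainly through inhibitory G proteins to Rac. LPA is made outside cells mostly by autotaxin (Enpp2) and S1P inside cells by sphingosine kinases, and in marrow these receptors are known for their roles in the traffic of blood cells and in the movement and differentiation of stromal cells.

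On the GRCm38 build the protein coding genes lie at chr4:58435255-58553898 (Lpar1, minus strand), chr8:69822429-69831102 (Lpar2, plus), chr3:146220963-146286186 (Lpar3, plus), chrX:106920625-106933900 (Lpar4, plus), chr14:73237895-73243294 (Lpar6, plus), chr3:115710433-115715072 (S1pr1, minus), chr9:20962361-20976781 (S1pr2, minus) and chr13:51408639-51422797 (S1pr3, plus). The coding sequences of the reference transcripts follow the division into families. Aligned over their whole length, Lpar1, Lpar2 and Lpar3 were 55.3% to 56.6% identical in base sequence with each other. Lpar4 and Lpar6 were 55.1% identical with each other, and 41.2% to 45.7% identical with the other receptors. S1pr1 and S1pr3 were the most alike of all pairs, at 58.5%. The coding lengths ran from 1035 bases for Lpar6 to 1149 bases for S1pr1.

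The 250 bases before the RefSeq transcript start (GRCm38.p6) are shown for 3 receptors, because Lpar4 and Lpar6, the closest pair among the P2Y-like receptors, had opposite differences after CK666 and S1pr3 had the highest level in control cells. All 3 genes lie on the plus strand, and capitals mark the only match to a searched motif.
Lpar4 (chrX:106920375-106920624): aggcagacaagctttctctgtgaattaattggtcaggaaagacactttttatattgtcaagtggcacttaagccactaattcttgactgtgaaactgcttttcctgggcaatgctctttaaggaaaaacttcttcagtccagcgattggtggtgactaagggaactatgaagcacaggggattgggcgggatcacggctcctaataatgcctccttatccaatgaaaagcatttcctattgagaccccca
Lpar6 (chr14:73237641-73237890): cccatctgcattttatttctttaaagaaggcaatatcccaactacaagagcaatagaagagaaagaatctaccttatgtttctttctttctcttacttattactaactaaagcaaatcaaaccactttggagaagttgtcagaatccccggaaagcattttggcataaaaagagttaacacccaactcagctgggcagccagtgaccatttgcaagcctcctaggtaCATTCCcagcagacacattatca
S1pr3 (chr13:51408368-51408617): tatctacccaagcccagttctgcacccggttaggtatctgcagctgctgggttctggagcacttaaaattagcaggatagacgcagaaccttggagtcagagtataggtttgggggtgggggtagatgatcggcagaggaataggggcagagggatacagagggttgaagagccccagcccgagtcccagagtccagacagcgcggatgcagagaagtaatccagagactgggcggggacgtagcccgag
The capitals in the Lpar6 window are a TEAD motif (GGAATG, here on the minus strand), which began 23 bases before the start. Both strands were searched for 5 motifs, and matches to different motifs did not overlap in these windows. The shares of 32851 RefSeq promoters of 27025 genes with a match in the same window were 12.642% for TEAD, 6.749% for AP-1 (TGANTCA), 1.546% for the cyclic AMP response element CRE (TGACGTCA), 0.816% for the CARE element (TGATGNAAT) and 1.467% for the CArG box bound by SRF. Lpar4 and S1pr3 had no match to any of the 5 motifs. Elsewhere among the receptors there was 1 CRE in the S1pr2 window and 1 AP-1 motif in the Lpar2 window. The windows of Lpar4 and Lpar6 held 43.6% and 39.2% G and C, and those of S1pr2 and S1pr3 59.2% and 56.4%, against a median of 52.4% over all promoters. Windows were found for 7 of the 8 receptors, all but S1pr1. A match is a description of the letters and not a bound site.

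The libraries held 18075610 to 24733212 counts each. Every library carried transcripts of MSC markers, 6 of 9 of which averaged at least 100 normalized counts (counts divided by the size factor of the library within its experiment), among them Pdgfra, Pdgfrb and Itgb1. Thy1 was at 0 in every library, Nt5e reached at most 8.2 and Eng lay at 5.29 to 75.5. The endothelial markers Cdh5, Tie1 and Emcn were at 0 everywhere, and the 6 endothelial markers summed to 4.1 to 25.8 normalized counts per library. The lymphocyte markers summed to at most 6.3. The macrophage markers summed to 62.0 to 291. Csf1r and Cd68 were found in every library, at 12.4 to 181 (highest in siControl replicate 2) and at 15.2 to 113. Ptprc and Adgre1, 2 defining markers of those cells, were at 0 in 17 libraries. In siArp4+CK666 replicate 3 they measured 1.05 and 12.6 normalized counts, and Lyz2, another macrophage marker, 189 against at most 86.1 elsewhere. The part of such cells in the receptor values of that library was not tested, and receptor values without it are given where it enters. The list of pericyte and smooth muscle markers, carried mainly by Des and Notch3, summed to 1714 to 2341 in control, 2036 to 2501 in CK666, 3390 to 3566 in CytoD, 1074 to 1174 in siControl, 335 to 512 in siArp4 and 247 to 405 in siArp4+CK666 libraries, and the part of such cells in any receptor difference was not tested. Actl6a, the target of the siRNA, measured 720.1, 1127 and 841 normalized counts in siControl, and only 48.8, 57.2 and 19.0 with siArp4 and 9.52, 22.9 and 17.9 when CK666 was added, although its exons overlap those of Mrpl47 on the other strand and the libraries were unstranded. One siControl library stood apart. Genes with a transcript of at least 5000 bases took 11.4% of the counts of siControl replicate 2 and 15.6% of those of siControl replicate 3, against 17.0% to 26.1% in the other 16 libraries, so receptor results against siControl are given with and without replicate 2.

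In control MSC the receptor transcripts spanned a wide range. As counts per kb of exon per 1000000 counts of the library, S1pr3 had the highest level at 34.8 ± 1.80 (SD, n = 3), above 88.9% of 12820 expressed genes. Lpar1 followed at 22.2 ± 2.15 and S1pr1 at 13.9 ± 0.733. S1pr2 stood at 4.75 ± 0.767. Lpar6 stood at 2.20 ± 0.287, Lpar4 at 0.867 ± 0.162 and Lpar2 at 0.233 ± 0.0962, which was above only 5.05% of expressed genes. No 2 neighbours in this order overlapped between libraries. Lpar3 had no count in 17 libraries and 1 count in CytoD replicate 1, so no level or fold change is given for it. The other receptors for LPA, S1P or related lipids (Lpar5, S1pr4, S1pr5, P2ry10, Gpr34 and Gpr174) had at most 3 counts in any library.

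**Figure D1:**
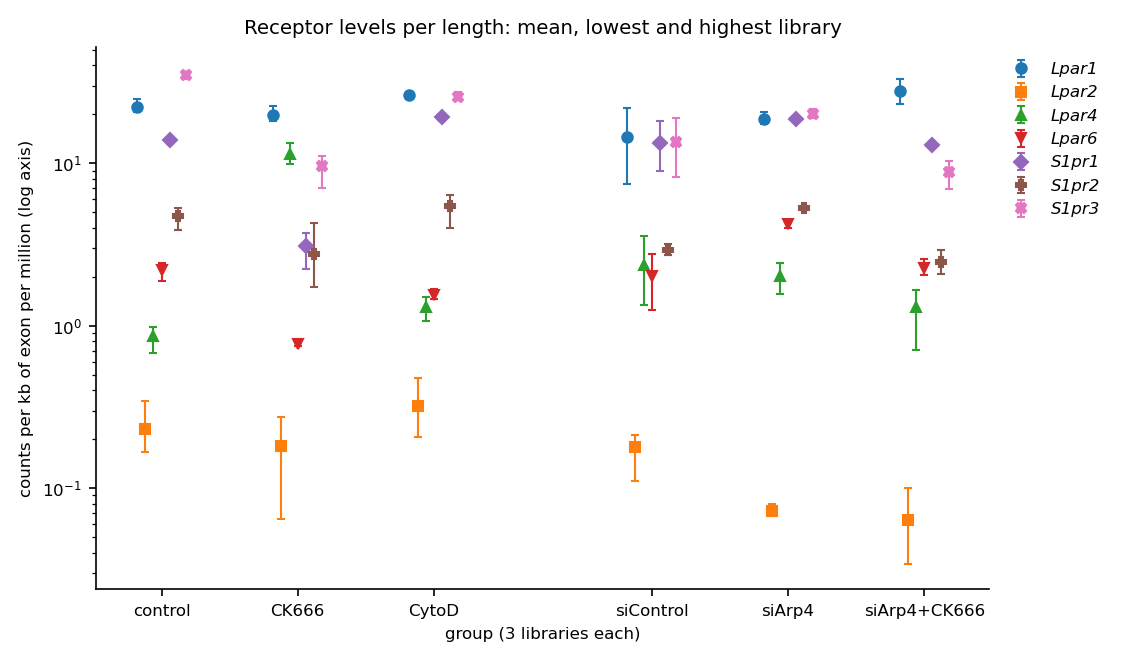
Level of 7 receptors (Lpar3 left out) in counts per kb of exon per 1000000 counts, on a log axis, for the 6 groups. Points are means of 3 libraries and bars run from the lowest to the highest library. Lpar4 stood 6th of the receptors in control and 2nd in CK666.

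The order changed with CK666. In CK666 libraries Lpar1 led at 19.8 ± 2.27 on this scale, Lpar4 came next at 11.3 ± 1.86, and its range overlapped that of S1pr3 at 9.65 ± 2.23. S1pr1 at 3.08 and S1pr2 at 2.76 overlapped as well. In CytoD libraries Lpar1 at 26.2 and S1pr3 at 25.7 did not differ beyond their spread, and neither did Lpar6 at 1.54 and Lpar4 at 1.305. In siControl libraries Lpar1, S1pr3 and S1pr1 lay at 14.4, 13.6 and 13.3 with overlapping ranges. In siArp4 libraries the same receptors lay at 18.8, 20.05 and 18.7, again with overlap. In siArp4+CK666 libraries Lpar1 stood alone at 27.8 ± 4.84, above S1pr1 at 12.9 and S1pr3 at 8.81.

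The first comparison asked what inhibition of Arp2/3 did to the receptors. Lpar4, a receptor that can raise cyclic AMP, had far more transcripts after CK666, while S1pr1, S1pr3 and Lpar6 had fewer. A gene was called where its log2 fold change exceeded 1 in size and the DESeq2 adjusted p over all genes was below 0.01. By this rule 4 of the 8 receptors were called, 1 higher and 3 lower, beside 11% of 14597 tested genes. Because the receptors were picked with this contrast known, nothing is read from that share. Adjusted values existed for 7 of the 8 receptors in this and every other comparison, all but Lpar3.

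Lpar4 measured 60.0, 85.7 and 81.8 normalized counts in control and 871, 1120.3 and 895 in CK666 libraries. Every CK666 library was thus far above every control library, and the log2 fold change was 3.67 ± 0.20 (SE), a 12.7-fold higher level. It stayed between 3.52 and 3.77 in every alternative fit. In a bulk sample a change in the number of cells that carry a transcript and a change in the amount per cell cannot be told apart.

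S1pr1, the receptor through which S1P guides migration, measured 876, 821 and 919 in control and 141, 198 and 222 in CK666 libraries. The groups lay wide apart, at a log2 fold change of -2.22 ± 0.16, and the CK666 mean was 21.5% of the control mean. S1pr3, which can couple to several classes of G protein, measured 3059.6, 3357 and 3212 in control and 661, 981 and 939 in CK666 libraries. The highest CK666 library had less than any control library, with a log2 fold change of -1.90 ± 0.15 and a CK666 mean at 26.8% of control. Lpar6, known for its role in hair growth, measured 211, 253 and 272 in control and 84.5, 87.7 and 79.0 in CK666 libraries. Here too the groups did not overlap, at a log2 fold change of -1.55 ± 0.19.

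The exons of Lpar6 overlap those of Rb1, which lies on the opposite strand, and since the libraries were unstranded the counts of the pair could be mixed. Rb1 averaged 769 ± 118 normalized counts in control and 1177 ± 199 in CK666 libraries (n = 3 each), with a log2 fold change of 0.61 ± 0.16. Its difference therefore had the opposite sign to that of Lpar6.

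S1pr2, which restrains migration, measured 877, 829.7 and 639 in control and 288, 669.7 and 359.9 in CK666 libraries. CK666 replicate 2 reached into the control range, and S1pr2 was not called at a log2 fold change of -0.83 ± 0.29. Without that library the value was -1.27 and it was called. The share of counts in long genes was 17.9%, 25.7% and 23.5% in CK666 replicates 1, 2 and 3, and 24.1% to 26.1% in control libraries. Replicate 3 was thus nearer to replicate 2 in this share but nearer to replicate 1 in S1pr2. The part of this share in the S1pr2 spread was not tested.

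Lpar1 measured 2198, 1818 and 1897 in control and 1633, 1589 and 1891 in CK666 libraries. Its groups overlapped and its log2 fold change was -0.21 ± 0.12, with a 95% interval of -0.44 to 0.02. Lpar2 measured 20.3, 22.4 and 41.4 in control and 24.6, 31.6 and 7.44 in CK666 libraries, which overlapped. At these counts its log2 fold change of -0.41 had a 95% interval of -1.54 to 0.73, which reached past a 2-fold lower level, so a difference was not detectable at this depth.

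**Figure D2:**
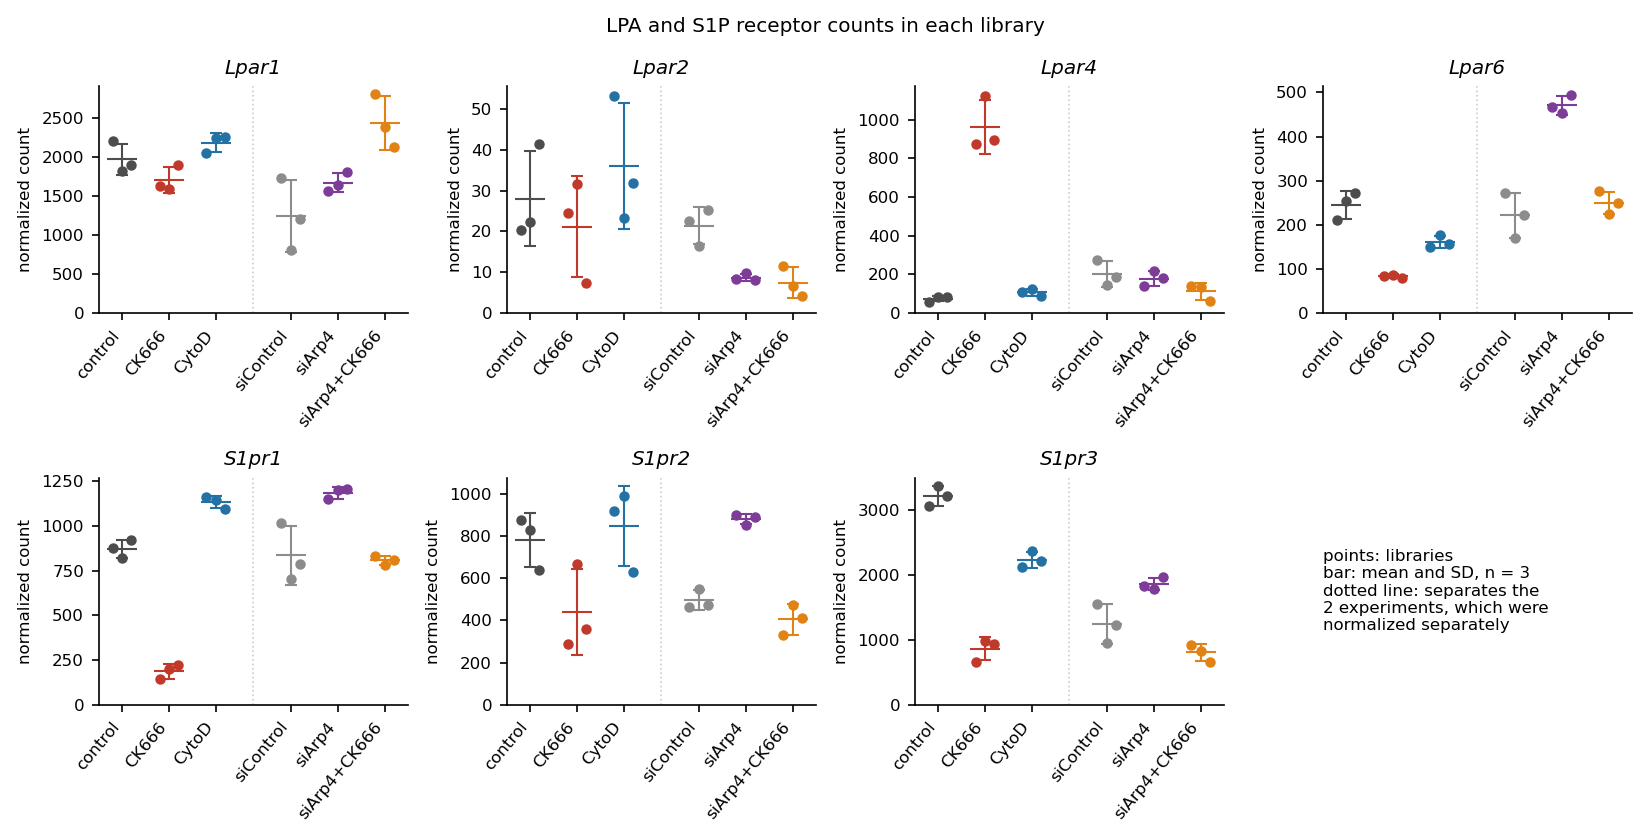
Normalized counts of 7 receptors in each of the 18 libraries, with the mean and SD of each group (n = 3) and a linear axis from 0. The dotted line parts the experiments, which were normalized separately. CK666 libraries lie at 871 to 1120.3 for Lpar4, against 60.0 to 85.7 in control.

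The groups of 4 of the 8 receptors did not overlap between CK666 and control, beside 47.5% of all tested genes.

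CytoD changes actin by another route, and the next comparison set it against the same control libraries. No receptor was called by DESeq2, beside 9.12% of 13717 tested genes, although 4 receptors had an unadjusted p below 0.05 and edgeR also called 0. The groups of 4 of the 8 receptors did not overlap, beside 58.9% of all tested genes. S1pr3 measured 2117, 2361 and 2211 in CytoD libraries, all below the control range, at a log2 fold change of -0.53 ± 0.15. Lpar6 measured 151, 177 and 157, also below every control library, at -0.60 ± 0.18. S1pr1 measured 1161, 1146 and 1096, all above control, at 0.38 ± 0.15. Lpar4, the receptor with the large difference after CK666, was modestly above control here. It measured 109, 123 and 89.6, at 0.50 ± 0.21. Lpar1 (2049, 2242 and 2261) and S1pr2 (920.4, 990.3 and 631) overlapped with control, at log2 fold changes of 0.15 ± 0.12 and 0.12 ± 0.29. Lpar2 (53.1, 23.2 and 31.9) overlapped as well, at 0.36 ± 0.57.

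The drugs were then set against each other directly. CK666 libraries had more Lpar4 than CytoD libraries, at a log2 fold change of 3.16 ± 0.19, and less S1pr1, at -2.60 ± 0.16, and less S1pr3, at -1.37 ± 0.15. These 3 receptors were called, beside 11.8% of 15038 tested genes. The groups of 5 of the 8 receptors did not overlap, beside 49.3% of all tested genes. S1pr1 and Lpar4 thus stood on the same side of control in CytoD libraries, both slightly above it, and on opposite sides in CK666 libraries. Lpar6 and S1pr2 were close to the limit without passing it, at -0.95 ± 0.20 and -0.95 ± 0.29. S1pr2 was called without CK666 replicate 2, at -1.38, or without CytoD replicate 3, at -1.12.

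**Figure D3:**
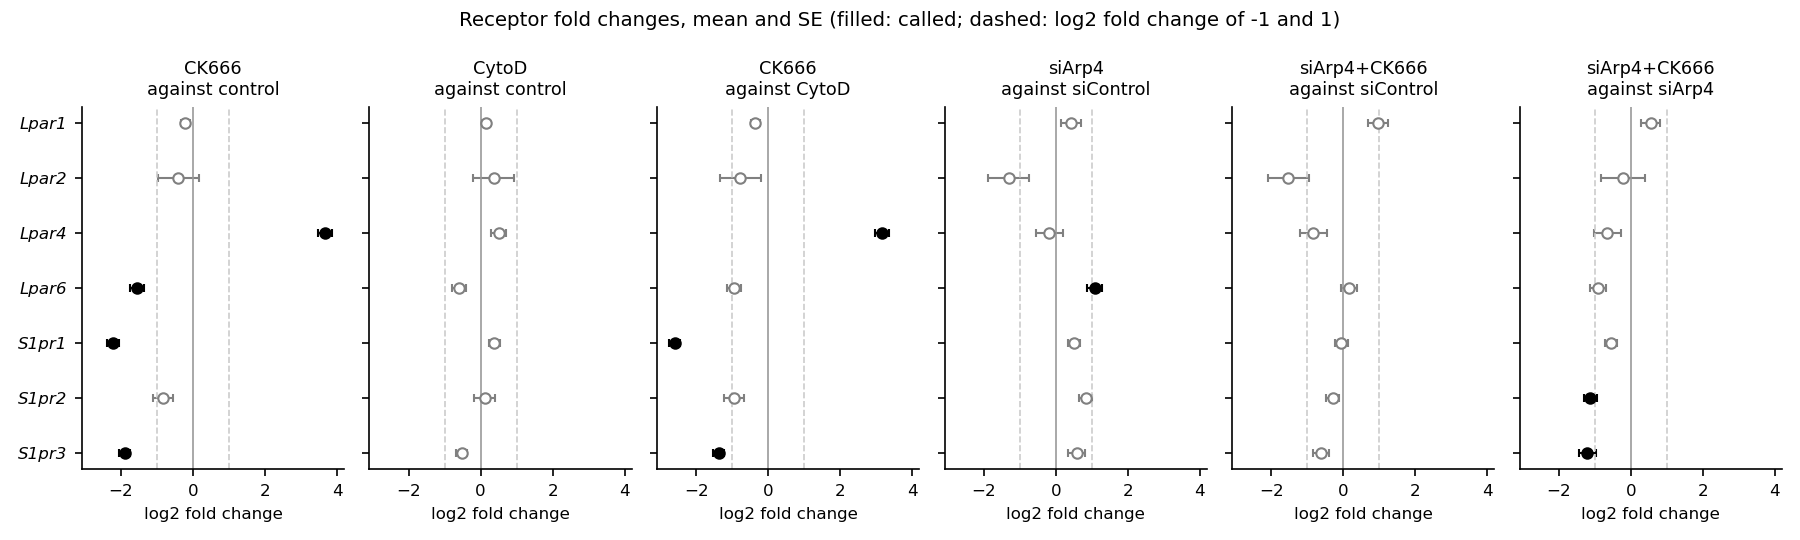
Log2 fold change of 7 receptors with its SE in the 6 comparisons (DESeq2, no shrinkage). Filled points were called and open points were not, and dashed lines mark log2 fold changes of -1 and 1. Lpar4 lies at 3.67 for CK666 against control and at 0.50 for CytoD against control.

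In the second experiment the knockdown of Arp4 was compared with the control siRNA. The level of 5 receptors was higher and that of 2 lower in siArp4 libraries, with 1 of them called. That was Lpar6, and 16.2% of 15415 tested genes were called. The groups of 5 of the 8 receptors did not overlap, beside 43.5% of all tested genes. Lpar6 measured 272, 171 and 222 in siControl and 467, 452 and 494 in siArp4 libraries. Every siArp4 library lay above every siControl library, at a log2 fold change of 1.08 ± 0.21. Without siControl replicate 2 the value was 0.92 and the gene was no longer called. Rb1, its partner on the other strand, averaged 662 ± 231 in siControl and 440.2 ± 57.9 in siArp4 libraries (n = 3 each).

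S1pr2 measured 465, 551 and 472 in siControl and 902, 854 and 889.7 in siArp4 libraries. Its groups were well apart, and the log2 fold change of 0.83 ± 0.18 stayed below the limit of 1, with 0.91 when siControl replicate 2 was left out. S1pr1 measured 1017, 700.4 and 787 in siControl and 1148, 1203 and 1203 in siArp4 libraries, a log2 fold change of 0.50 ± 0.18. S1pr3 measured 1552, 943 and 1223 in siControl and 1823, 1779.6 and 1968 in siArp4 libraries, at 0.58 ± 0.23. Neither group pair overlapped, but siControl replicate 2 was the lowest library for both genes, and without it the values were 0.39 and 0.41.

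Lpar1 and Lpar4 overlapped between siControl and siArp4. Lpar1 measured 1727, 812 and 1200.1 in siControl and 1569, 1636 and 1807 in siArp4 libraries, at 0.42 ± 0.28. Leaving out siControl replicate 2 brought this to 0.18. Lpar4 measured 275, 145 and 186 in siControl and 139, 217 and 179 in siArp4 libraries, at -0.18 ± 0.37, or -0.38 without that library. Lpar2 measured 22.6, 16.3 and 25.2 in siControl and 8.42, 9.72 and 8.02 in siArp4 libraries. These low counts did not overlap, and the log2 fold change of -1.31 ± 0.57 was not called (-1.47 without siControl replicate 2).

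Cells that had both the Arp4 siRNA and CK666 were compared with siControl. No receptor was called by DESeq2, beside 20.4% of 15415 tested genes, while 4 receptors had an unadjusted p below 0.05 and edgeR called 0. The groups of 4 of the 8 receptors did not overlap, beside 43.1% of all tested genes. Lpar1 came closest, with 2806, 2388 and 2120.3 normalized counts, all above the siControl range, at a log2 fold change of 0.97 ± 0.28. It was called without siControl replicate 1, at 1.28, without siArp4+CK666 replicate 3, at 1.06, and with the replicate number as a block, at 1.01, but had only 0.73 without siControl replicate 2. S1pr3 measured 924, 828 and 661, all below siControl, at -0.62 ± 0.23. Lpar4 measured 141, 134 and 64.3, at -0.84 ± 0.38, again below every siControl library. Without siControl replicate 2 these values were -0.79 and -1.03, and neither gene was called. For Lpar2, with 11.6, 6.68 and 4.22, the value was -1.52 ± 0.58. S1pr1 (830.0, 780.3 and 809), S1pr2 (329, 473 and 411) and Lpar6 (276, 224 and 249) overlapped with siControl, at -0.05 ± 0.18, -0.29 ± 0.19 and 0.16 ± 0.22. Without siControl replicate 2 the value was -1.68 for Lpar2, -0.17 for S1pr1, -0.21 for S1pr2 and 0.0079 for Lpar6, and none was called. Without siArp4+CK666 replicate 3 the values were -0.56 for Lpar4, -0.50 for S1pr3, -1.24 for Lpar2, -0.05 for S1pr1, -0.30 for S1pr2 and 0.17 for Lpar6, and again none was called.

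Set against siArp4 alone, the same libraries show what CK666 did in cells with the knockdown. S1pr2 and S1pr3 were both lower and were called, beside 5.75% of 14098 tested genes. The groups of 5 of the 8 receptors did not overlap, beside 37.8% of all tested genes. S1pr3 had a log2 fold change of -1.21 ± 0.23, with a mean at 43.3% of that in siArp4 libraries. S1pr2 had -1.12 ± 0.18, with a mean at 45.8%. The S1pr2 value was -0.99 without siArp4+CK666 replicate 1, and it was then not called. Lpar6 was lower at -0.92 ± 0.21 and S1pr1 at -0.55 ± 0.18, in both cases with groups that did not overlap, and neither was called. Lpar4 had fewer rather than more counts with CK666 here, at -0.66 ± 0.38 with overlapping groups. Lpar1 had 0.55 ± 0.28 and groups that did not overlap. Lpar2, at under 12 normalized counts in each of these 6 libraries, had -0.22 ± 0.62. Without siArp4+CK666 replicate 3, S1pr2 and S1pr3 were still called, at -1.14 and -1.08, and the other values were -0.91 for Lpar6, -0.56 for S1pr1, -0.37 for Lpar4, 0.64 for Lpar1 and 0.06 for Lpar2.

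**Figure D4:**
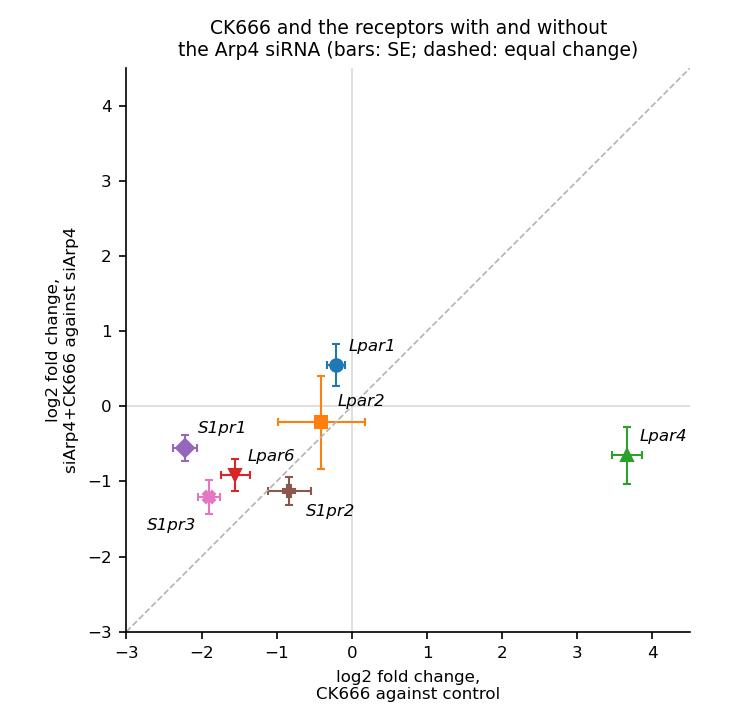
Log2 fold change of 7 receptors with CK666 in untransfected cells (horizontal axis) and in cells with the Arp4 siRNA (vertical axis), with SE on each axis. The dashed line marks equal change. Lpar4 lies at 3.67 and -0.66, and S1pr1 at -2.22 and -0.55.

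The difference between these effects of CK666 was fitted over all 18 libraries, as the log2 fold change in siArp4 cells minus that in untransfected cells. It was -4.33 ± 0.42 for Lpar4 and 1.66 ± 0.21 for S1pr1, and these 2 receptors were called, beside 4.42% of 13511 tested genes. Without siArp4+CK666 replicate 3 both were still called, at -4.06 and 1.64. The difference was 0.75 ± 0.28 for Lpar1, 0.69 ± 0.26 for S1pr3, 0.63 ± 0.24 for Lpar6, 0.18 ± 0.82 for Lpar2 and -0.30 ± 0.38 for S1pr2, and without that library 0.83, 0.79, 0.62, 0.45 and -0.32 in the same order, none of them called. The sides of this contrast come from different experiments, so the Arp4 siRNA, the transfection and the experiment itself cannot be told apart.

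Over the 18 libraries, some receptors varied together. Pearson's r of variance stabilized values was 0.79 for S1pr1 with Lpar6, 0.78 for S1pr2 with S1pr3 and -0.82 for S1pr1 with Lpar4. These are descriptions over libraries that share treatments and controls. The genes most like each receptor were taken among 9891 genes with a mean of at least 100 normalized counts (9892 for Lpar2). For Lpar4 they were Agap1 (r = 0.93) and Mllt11 (0.92). For S1pr1 they were Pxylp1 (0.98) and Palld (0.95), the latter coding for the actin binding protein palladin. For S1pr3 they were Epb41l2 and Fam111a (0.96 each). For Lpar6 they were Plat (0.96), which codes for tissue plasminogen activator, and Cdc42 (0.96), a small GTPase that shapes the actin cytoskeleton. For S1pr2 they were Adamtsl4 (0.84) and Alox5 (0.83). For Lpar1 they were Thoc2 (0.93) and Dlg3 (0.91), and for Lpar2 Lss (0.87) and Adam12 (0.84).

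Besides the receptors, 86 genes of the same pathway were followed in lists set out from textbook roles, with earlier results of these data known. Of those tested, 12 of 70 were called for CK666 against control (17.1%, beside 11% of all tested genes), 16 of 66 for CytoD against control (24.2%, beside 9.12%) and 16 of 70 for CK666 against CytoD (22.9%, beside 11.8%). In the second experiment 18 of 70 were called for siArp4 against siControl (25.7%, beside 16.2% of all tested genes), 17 of 70 for siArp4+CK666 against siControl (24.3%, beside 20.4%) and 11 of 70 for siArp4+CK666 against siArp4 (15.7%, beside 5.75%). Because the lists were drawn up with results known, nothing is read from these shares. Adjusted p-values below are those of DESeq2 over all genes. Every list gene called against siControl was also called without siControl replicate 2. For siArp4 the log2 fold change was then -2.18 for Plpp2, 1.87 for Plpp3, -1.54 for Sgpl1, -1.32 for Sgpp1, -1.09 for Gnai2, -1.48 for Gnai3, 2.46 for Rhob and -2.39 for Egr1, and for siArp4+CK666 it was -2.87 for Plpp2 and 1.65 for Plpp3. Klf2, a transcription factor, moved most of these genes named for siArp4, from 1.72 to 2.46.

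Among the 9 genes that make or break down LPA, CytoD raised Enpp2, which codes for autotaxin, from 535 to 1244 mean normalized counts (log2 fold change 1.22 ± 0.11, adjusted p = 1.4e-27). With CK666 Enpp2 averaged 1035 normalized counts, at a log2 fold change of 0.95, and was not called. The lipid phosphatases that degrade LPA and S1P outside cells split in the second experiment. Plpp2 fell from 1818 in siControl to 345 in siArp4 libraries (-2.40 ± 0.29, adjusted p = 1.1e-14) and to 212 in siArp4+CK666 libraries (-3.10 ± 0.30, adjusted p = 5.1e-24). Plpp1 averaged 862 in siControl and 452 in siArp4 libraries. It was called lower in siArp4+CK666 libraries, at 348 (-1.31 ± 0.22, adjusted p = 3.2e-08, and -1.22 without siControl replicate 2). Plpp3 rose from 1209 to 5061 (2.06 ± 0.22, adjusted p = 1.2e-18) and 4317 (1.83 ± 0.22, adjusted p = 4.5e-15). Plpp3 also rose with CytoD (1.08 ± 0.11, adjusted p = 2.2e-22). Pla1a, a phospholipase that can release a precursor lipid, fell from 1619 in siArp4 to 491 in siArp4+CK666 libraries (-1.72 ± 0.15, adjusted p = 1.2e-27). In all, 1 of 8 tested genes of the list was called for CK666 and 2 of 7 for CytoD against control, beside 11% and 9.12% of all tested genes. For siArp4 and for siArp4+CK666 against siControl, 4 of 8 were called each time, 3 of them lower, beside 16.2% and 20.4% of all tested genes. Liph, called for CK666, had at most 1 count in the CK666 libraries and 5 to 13 normalized counts in control, too few for a fold.

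Among the 15 genes that make, degrade or carry S1P, CytoD raised the kinase Sphk1 from 249 to 625 (1.33 ± 0.15, adjusted p = 1.9e-16) and the lipid transporter Abca1 from 555 to 1774 (1.68 ± 0.27, adjusted p = 3.2e-09). CK666 did not pass the limit for either, at 0.19 and 0.03. The other kinase gene, Sphk2, rose 2.29-fold with CK666, from 366 to 839 (adjusted p = 1.8e-16), but its exons overlap those of the abundant Rpl18 on the other strand, so this count is uncertain. In siArp4 cells Sgpl1, the lyase that destroys S1P, fell from 5053 to 1988 (-1.35 ± 0.26, adjusted p = 2.0e-06) and the phosphatase gene Sgpp1 fell from 1903 to 807 (-1.24 ± 0.14, adjusted p = 5.0e-17). For siArp4 against siControl 3 of 12 tested genes of the list were called, all lower, beside 16.2% of all tested genes. For CK666 against control 1 of 11 was called, and for CytoD against control 3 of 11, all higher, beside 11% and 9.12% of all tested genes.

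**Figure D5:**
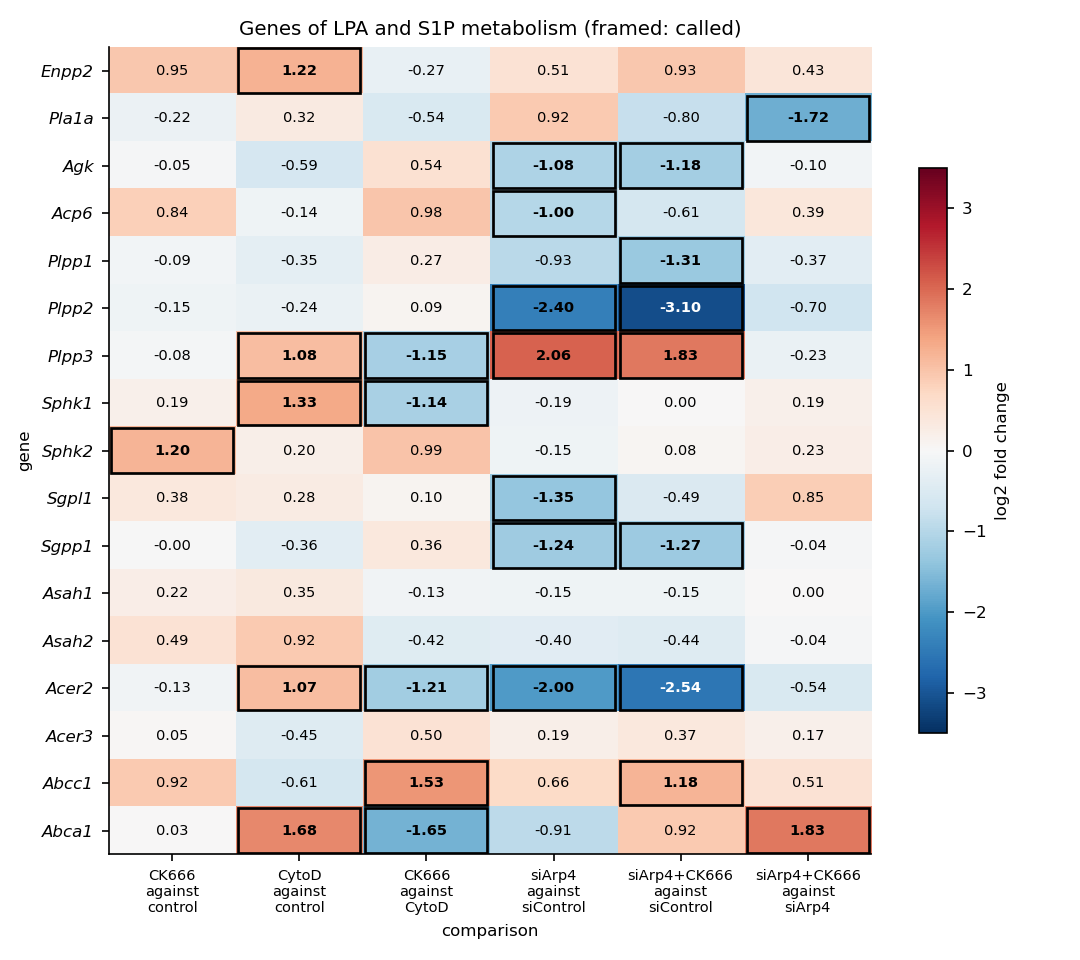
Log2 fold change of genes that make, break down or carry LPA and S1P, in the 6 comparisons, for genes with a group mean of at least 20 normalized counts. Framed cells in bold were called. Plpp2 and Plpp3 lie at -2.40 and 2.06 for siArp4 against siControl.

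Of the genes for G protein subunits through which the receptors act, DESeq2 called 0 of 16 tested for CK666 and 0 of 14 for CytoD against control, beside 11% and 9.12% of all tested genes. At an unadjusted p below 0.05 there were 4 and 5, and edgeR called 0 in both. In siArp4 libraries the inhibitory subunit genes Gnai2 and Gnai3 were lower than in siControl, at -1.26 ± 0.19 (adjusted p = 3.3e-10) and -1.30 ± 0.23 (adjusted p = 2.9e-07). Gna12, which codes for a subunit that turns on RhoA, rose in siArp4+CK666 over siArp4 libraries from 780.3 to 1978 (1.34 ± 0.20, adjusted p = 4.3e-10).

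Among 13 tested effectors downstream of the G proteins, small GTPases and phospholipase C genes included, Rhob was the only one called for CK666 against control. That count stands beside 11% of all tested genes called. Rhob measured 7269, 6425 and 6773 in control and 1388, 1247 and 1399 in CK666 libraries (-2.34 ± 0.09, adjusted p = 9.6e-143). It rose with siArp4 from 3153 to 19277 (2.61 ± 0.18, adjusted p = 2.3e-44) and was lower again in siArp4+CK666 than in siArp4 libraries, at 5711 (-1.76 ± 0.18, adjusted p = 6.8e-20).

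Of the genes that silence or relocate receptors, Klf2, a transcription factor known to drive S1pr1 in T cells, fell with CK666 from 435 to 104 (-2.07 ± 0.15, adjusted p = 3.4e-39). Arrb1, a beta-arrestin, fell from 617 to 189 (-1.71 ± 0.18, adjusted p = 7.3e-21). The other beta-arrestin gene, Arrb2, was called higher, from 133 to 285 (1.09 ± 0.35, adjusted p = 0.0056). That call was lost under edgeR and without CK666 replicate 1 (0.64). For CK666 against control 3 of 6 tested genes of this list were called, 1 higher and 2 lower, beside 11% of all tested genes. With CytoD Klf2 stayed at 454. In siArp4 libraries Klf2 averaged 2556 against 774 in siControl (1.72 ± 0.48, adjusted p = 0.0015), a call that was lost under edgeR and when any of 3 libraries was left out, siArp4 replicate 1 (1.69), siArp4 replicate 2 (1.63) or siControl replicate 3 (1.55). From siArp4 to siArp4+CK666 libraries Klf2 fell to 556 (-2.20 ± 0.48, adjusted p = 7.9e-05), and edgeR did not call it (adjusted p = 0.025). S1pr1 was not called in that comparison.

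The last list held 17 genes that LPA or S1P are known to induce, many of which also respond to other signals through SRF or YAP. CytoD lowered 10 and raised 1 of 15 tested, and CK666 lowered 5 and raised 1 of 16, beside calls in either direction for 9.12% and 11% of all tested genes. Ccn2, which codes for a matrix protein, fell from 31708 to 2259 with CK666 (-3.81 ± 0.10) and to 3456 with CytoD (-3.20 ± 0.10, adjusted p = 1.2e-237). It fell again in siArp4+CK666 against siArp4 libraries, from 16975 to 1388 (-3.61 ± 0.13, adjusted p = 3.2e-177). Ptgs2, the inducible cyclooxygenase, went apart under the drugs. It rose from 563 to 1208 with CK666 (1.10 ± 0.13, adjusted p = 8.8e-17) and fell to 88.2 with CytoD (-2.67 ± 0.15, adjusted p = 5.2e-65). Egr1, an immediate early transcription factor, fell with siArp4 from 2825 to 503 (-2.49 ± 0.16, adjusted p = 1.4e-49). In siArp4 against siControl 5 of 16 tested response genes were higher and 1 lower, and in siArp4+CK666 against siArp4 libraries 6 of 16 were called, all lower, beside 16.2% and 5.75% of all tested genes called in either direction.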

How the data were processed

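RNA-seq was carried out on 18 libraries in 6 groups of 3. Per the labels the libraries were unstranded. Per the study's methods the authors quantified the paired reads with Salmon 1.2.1 on GENCODE vM25 (GRCm38), and the authors deposited the estimated counts per gene, not scaled between samples. Rounding them to whole numbers changed no library total by more than 277. Symbols, coordinates and exon lengths came from GENCODE vM21 on the same build, which matched 54094 gene identifiers and not 253.

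The 9 libraries of each experiment were fitted with DESeq2 1.42.0 (R 4.3.3, Wald test, group as the only term, no shrinkage), and calls needed an adjusted p below 0.01 (Benjamini-Hochberg over all genes) and an absolute log2 fold change over 1. The p-values are two-sided and describe the spread between cultures of 1 line. Salmon can split reads between similar transcripts, and unstranded reads of overlapping genes can be mixed. Of the genes named with values, Sphk2, Lpar6, Actl6a, Plpp1, Tagln and Ccn2 share exon positions with a gene of at least 37.5 mean counts on the other strand. The fits were checked on simulated data. The receptors and gene lists were chosen with earlier results of these data known. The named genes are the receptors, Actl6a, called genes of the lists (at most the 12 largest changes per comparison) and the 2 genes most like each receptor. Enpp2, Sgpp1 with siArp4, Plpp3 with CytoD, Rb1 and uncalled values are outside that rule.

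Samples with the same replicate number deviated together in control and CK666 (correlations of 0.178 to 0.416 over 5000 genes). CK666 replicate 1 and CytoD replicate 3, with different numbers, also reached 0.44. The labels give replicate numbers only, so a pairing of cultures was not shown. With the replicate block no receptor gained or lost a call between control and CK666. Alternatives were edgeR 4.0.16, TMM scaling, a count filter (10 in 3 libraries), no fold minimum, all libraries in one fit, the replicate block, each library left out, and, chosen after seeing the data, removal of the trend with transcript length.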

Additional observations from a re-analysis of the deposited data

Results flagged for a closer look

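The difference between the effect of CK666 in siArp4 cells and in untransfected cells passed the call rule for 2 receptors. It also did for 6 of 67 tested genes of the pathway lists (8.96%, beside 4.42% of all tested genes). The lists were drawn up with results known, so nothing is read from that share. On the log2 scale the difference was -4.33 for Lpar4 and 1.66 for S1pr1, which are descriptions because the receptors were picked with results known. By DESeq2, adjusted over all genes, it was -1.51 for Pla1a (SE 0.19, adjusted p = 9.2e-14), 1.80 for Abca1 (SE 0.43, adjusted p = 0.00075), -1.67 for Ptgs2 (SE 0.39, adjusted p = 0.00045), 3.25 for Edn1 (SE 0.67, adjusted p = 4.5e-05), -2.21 for Tagln (SE 0.41, adjusted p = 2.6e-06) and -1.01 for Acta2 (SE 0.24, adjusted p = 0.00056). Edn1 codes for endothelin, and Tagln and Acta2 for actin associated and smooth muscle actin proteins. Edn1 had 5 to 89 normalized counts in the 4 groups involved, and the counts of Tagln could hold reads of Pcsk7 on the other strand. edgeR did not call Abca1 (adjusted p = 0.016) or Ptgs2 (adjusted p = 0.012). The Acta2 value was below 1 in size without CK666 replicate 1 (-0.86), control replicate 2 (-0.99), siArp4 replicate 1 (-0.97), siArp4+CK666 replicate 1 (-0.95) or siArp4+CK666 replicate 2 (-0.98), and once the trend of the fold changes with transcript length was removed (-0.85). The experiments differ in transfection as well as in Arp4, and these cannot be told apart.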

How the results depend on the processing

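Of 749 recomputed receptor fold changes 745 moved by less than 1 SD of the libraries, 4 moved by more, and 0 called values changed sign. Without a fold minimum the receptors called were 2 for CytoD against control, 6 for CK666 against CytoD, 2 for siArp4 and 1 for siArp4+CK666 against siControl. The pathway genes called were then 27 for CK666 and 31 for CytoD against control and 37 for CK666 against CytoD. They were 26 for siArp4+CK666 against siControl and 11 for the difference between CK666 effects. The share of all tested genes that passed this looser rule is not given here, so nothing is read from these counts. For siArp4+CK666 against siControl, the replicate block and the removal of the length trend each called 1 receptor, Lpar1 at 1.01 and Lpar2 at -1.74. With single libraries left out, the receptors called ran from 0 to 1 for siArp4 and for siArp4+CK666 against siControl and from 1 to 2 for siArp4+CK666 against siArp4. Removing the length trend called Lpar6 in that last comparison, at -1.02. The causes of these moves were not tested. The replicate block changed no other receptor call, and the replicate numbers were not shown to pair libraries. Depth limits Lpar2, at 4 to 50 counts, and Lpar3, at 0 to 1 count.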
